A study of Mus musculus with 22 samples.

Results

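Adherent endoderm cultures and Activin A gastruloids, both grown from wild-type mouse embryonic stem (mES) cells and both collected at 120 h, were compared across all genes. The members were the libraries of the 2 groups: 3 replicates of the endoderm differentiation and 2 of the gastruloids, 5 of the 22 libraries of the series, joined by the gene identifiers that their count tables share. The endoderm cultures were started from 50000 mES cells per well of a plate, in DMEM/F12 with 0.2% serum and B27. Activin A at 100 ng/ml and the GSK-3 inhibitor CHIR99021 at 3 µM were added after 24 h and again at 72 h. Gastruloids are free-floating aggregates of stem cells that form several embryonic tissues; the sources used here give no dose or timing for the Activin A in them. All cells had been kept as mES cells with LIF, CHIR99021 and a MEK inhibitor, and both cultures carry the cell type label "Mixed cells", so every value is an average over a mixture. Libraries of 96 h gastruloids (2, wild type) and of both cultures from cells labelled Hox-/-, a line said in the series title to lack all Hox function (3 endoderm, 2 gastruloid), were set beside the comparison.

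Activin A is a ligand of the TGF-β family that signals through the same receptors as Nodal, and GSK-3 inhibition activates the canonical Wnt pathway. In the gastrulating embryo, Nodal and Wnt signals together lead epiblast cells through a T- and Eomes-expressing mesendoderm state. Definitive endoderm then expresses Sox17 and Foxa2, while extraembryonic visceral endoderm expresses lipoprotein and transport genes such as Apob and Cubn. Aggregates also elongate and pattern themselves along an axis, which in the embryo is accompanied by sequential activation of the Hox clusters, formation of somites, neural tube and notochord, and signalling by Hedgehog ligands and retinoic acid.

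The endoderm libraries held 12327443, 15162942 and 13708232 counts and the gastruloid libraries 9251232 and 9108085. Levels are given as CPM, the count of a gene relative to the library total over the shared identifiers, so that 3 counts, the floor used here for absence, correspond to 0.198 to 0.243 CPM in endoderm and to 0.324 to 0.330 CPM in gastruloids; the floor covers counting error only. Mitochondrially encoded genes took 1.11% to 1.25% of the counts in endoderm and 0.597% to 0.635% in gastruloids, and ribosomal protein genes took 9.51% to 9.64% and 8.29% to 8.59%. The 2 cultures differ in format, medium, extraction and count table at once, so that culture, table and any batch between the tables cannot be told apart in this comparison. The labels do not say that replicates were separate cultures, and the p-values measure only the spread between these libraries.

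Of 15622 genes tested, 11916 (76.3%) passed the test (edgeR's quasi-likelihood test, Benjamini-Hochberg adjusted p under 0.05), 5977 (38.3%) higher in endoderm and 5939 (38%) higher in gastruloids. The spread between libraries of a group was small (biological coefficient of variation 0.0487), and small differences were therefore called. A call is described as large where it also reached a 4-fold difference, a log2 fold change of at least 2 in size: 2004 genes (12.8%), of which 977 (6.25%) were higher in endoderm and 1027 (6.57%) in gastruloids. The levels of the 2 groups did not overlap in 13115 genes (84%). The counts for each gene list below are to be read against these shares, and the medians against the median of all genes tested, a log2 fold change of -0.00. Log2 fold changes are endoderm over gastruloid after TMM scaling, with a standard error (SE), and lie about 0.16 above the ratio of the CPM values. In these bulk samples, fewer cells of a type and less RNA per cell cannot be told apart.

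**Figure D1:**
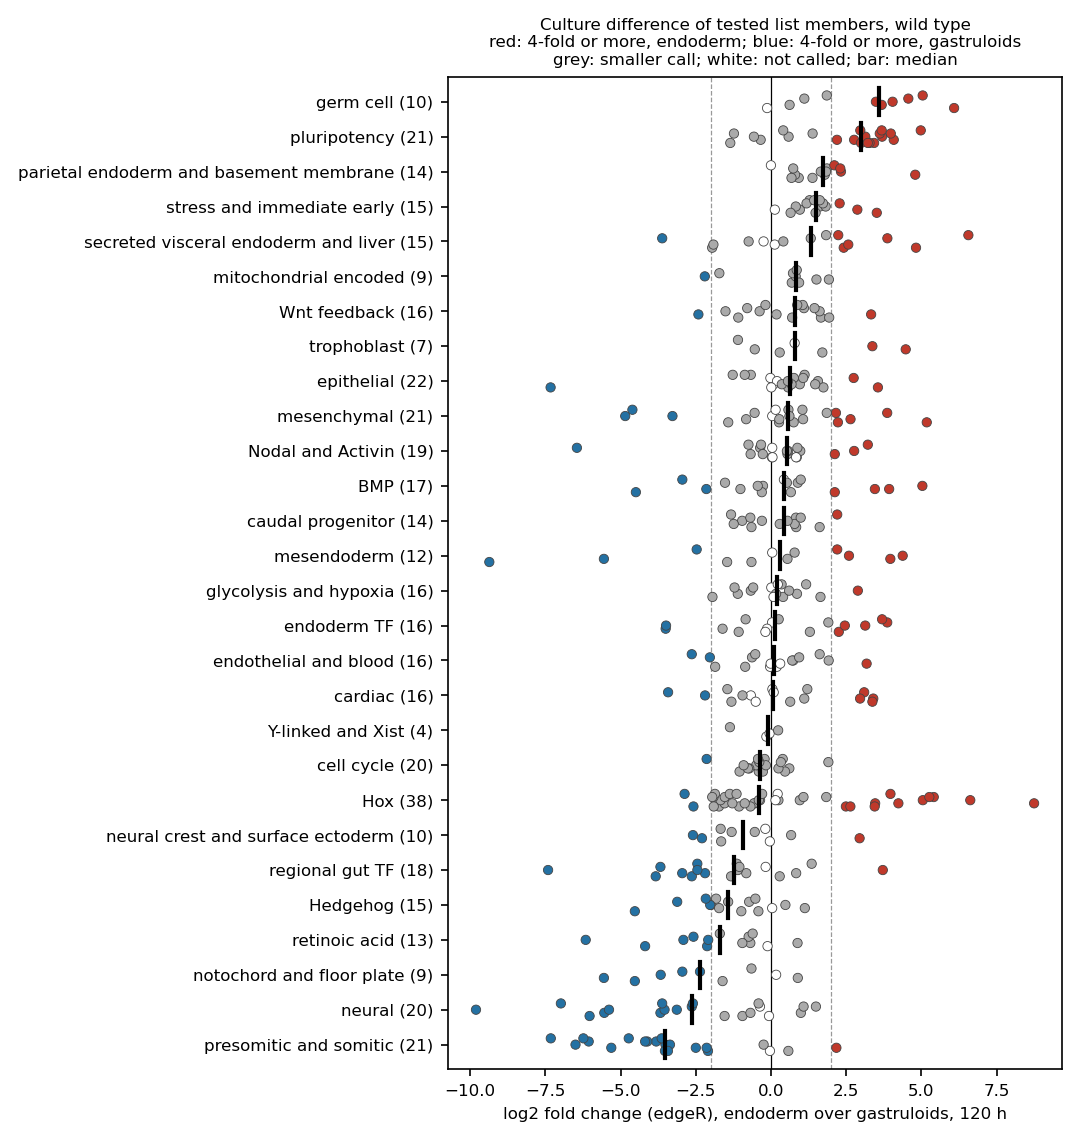
Log2 fold change (endoderm over 120 h gastruloid, wild type) of every tested member of each gene list, 1 point per gene and 1 line per list. Red and blue points are large calls higher in endoderm and in gastruloids, grey points smaller calls, white points genes not called, and the black bar is the list median: the pluripotency, germ cell and basement membrane lists lie to the right, and the somitic, neural, notochord and retinoic acid lists to the left.

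Naive pluripotency genes were far higher in the endoderm cultures. Pou5f1 (ENSMUSG00000024406, chr17:35506018-35510772, mm10), the Oct4 gene, was at 222, 257 and 232 CPM in endoderm and at 23.0 and 26.1 CPM in gastruloids (log2 fold change 3.43, SE 0.08, adjusted p = 1.16e-15). Nanog, a homeobox factor of naive pluripotency, was at 96.8, 111 and 107 CPM against 8.22 and 5.603 CPM (4.08, SE 0.12, adjusted p = 8.61e-15). Esrrb, an orphan nuclear receptor of the same network, was at 91.3, 108 and 102 CPM against 4.54 and 2.53 CPM (4.98, SE 0.14, adjusted p = 7.93e-15). For each of these genes every endoderm library lay above every gastruloid library. All 21 members of the pluripotency list passed the test, 17 higher in endoderm and 4 higher in gastruloids, with 14 large calls, all on the endoderm side, and a median log2 fold change of 2.99. Zfp42 (3.98), Klf5 (3.69), Tfcp2l1 (3.61), Klf2 (3.28), Tdgf1 (3.22), Dppa5a (3.13) and Klf4 (2.76) were among them. Sox2, which neural and endodermal progenitors also express, differed by less, with a log2 fold change of 0.59. The 4 members higher in gastruloids were Pou3f1 (-1.35), Otx2 (-1.23), Fgf5 (-0.57) and Lin28a (-0.34), of which Pou3f1, Otx2 and Fgf5 mark the primed epiblast.

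Germ cell genes were also higher in endoderm: 9 of 10 tested members, 6 of them large, with a median of 3.58, or 3.22 when genes absent from 1 culture are held at their lower bound. Dppa3, also called Stella, was at 13.95, 15.6 and 12.3 CPM in endoderm and at 0.325 and 0.110 CPM in gastruloids, at or below the floor, which makes it at least 42.6-fold higher in endoderm. The RNA helicase gene Ddx4 and the RNA-binding protein gene Dazl were at least 20.6-fold and at least 7.71-fold higher. Dnd1, which protects germ cell transcripts from microRNAs, was at 44.0, 45.7 and 57.8 CPM against 3.25 and 3.41 CPM (4.04, SE 0.17). Prdm14 (3.68) and Tfap2c (3.49), which act in both germ cell precursors and stem cells, differed as well. Prdm1, the gene of the germ cell determinant Blimp1, did not pass the test (-0.13, adjusted p = 0.202).

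Genes of the mesendoderm list went in both directions, with 6 of 12 higher in endoderm, 5 higher in gastruloids and a median of 0.29. Mixl1 (chr1:180693043-180697034), a homeobox gene of the primitive streak, was at 105, 85.2 and 92.9 CPM in endoderm and at 7.03 and 6.37 CPM in gastruloids (3.97, SE 0.12, adjusted p = 1.53e-14). Eomes, a T-box gene required for endoderm formation, was at 171, 151 and 163 CPM against 32.8 and 27.0 CPM (2.59, SE 0.08). It overlaps another annotated gene, and reads of the pair may be shared. Wnt3, the streak-inducing Wnt ligand, was at 48.6, 52.6 and 54.6 CPM against 2.38 and 3.19 CPM (4.38, SE 0.14). T, or Brachyury, went the other way, at 185, 168 and 171 CPM against 296 and 313 CPM (-0.65, SE 0.06, adjusted p = 1.10e-08). The large calls on the gastruloid side were the axial homeobox gene Noto (-5.55), the cardiac mesoderm gene Mesp1 (-2.47) and the forkhead gene Foxd4, which had 0 counts in all 3 endoderm libraries and 7.46 and 7.36 CPM in gastruloids, at least 33.7-fold. Gsc, the organiser gene, did not pass the test (0.04). In the caudal list, whose genes mark the elongating tail end, all 14 members passed the test, 8 higher in endoderm and 6 higher in gastruloids, with 1 large call and a median of 0.42; Sp5 (1.62) and Wnt3a (0.83), a Wnt target and a Wnt ligand, were higher in endoderm, and Nkx1-2 (-0.96) and Cyp26a1 (-0.69) in gastruloids.

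The label "endoderm" was checked against its defining genes, and the 2 most used were present in the endoderm cultures but lower than in the gastruloids. Sox17 (ENSMUSG00000025902, chr1:4490931-4497354) was at 25.5, 23.9 and 24.1 CPM in endoderm and at 57.4 and 57.3 CPM in gastruloids (-1.07, SE 0.08, adjusted p = 1.15e-09). Foxa2 (chr2:148042877-148046969), a pioneer factor of endoderm and notochord, was at 19.96, 17.9 and 18.02 CPM against 65.0 and 61.3 CPM (-1.61, SE 0.08, adjusted p = 1.31e-11). Hhex, a homeobox gene of anterior endoderm, was at 2.92, 3.36 and 2.70 CPM against 38.9 and 36.5 CPM (-3.49, SE 0.13, adjusted p = 1.46e-13). The groups did not overlap in any of these genes, and Foxa1 (-0.84) and Gata5 (-3.50) had the same direction.

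Other factors of the list were higher in the adherent cultures. Gata4 (chr14:63198922-63271692), which acts in visceral endoderm, definitive endoderm and heart, was at 89.2, 90.9 and 91.4 CPM in endoderm and at 11.6 and 11.4 CPM in gastruloids (3.13, SE 0.09, adjusted p = 3.76e-15). Sox7, a relative of Sox17 found in parietal endoderm and vessels, was at 7.06, 6.46 and 4.01 CPM against 0.649 and 0.220 CPM (3.86, SE 0.42). Hnf4a, a nuclear receptor of visceral endoderm and liver, was at 15.7, 14.97 and 15.7 CPM against 3.89 and 3.30 CPM (2.25, SE 0.16). Elf3 (2.45), an epithelial ETS factor, Klf5 (3.69) and Foxa3 (1.29) were higher in endoderm too. Gata6 (0.04, adjusted p = 0.764), Prdm1 and Tcf7l1 (-0.19, adjusted p = 0.079) did not pass the test. In all, 8 of 16 endoderm factors were higher in endoderm and 5 in gastruloids; the median was 0.15 and turned to -0.01 when libraries were scaled by total counts.

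**Figure D2:**
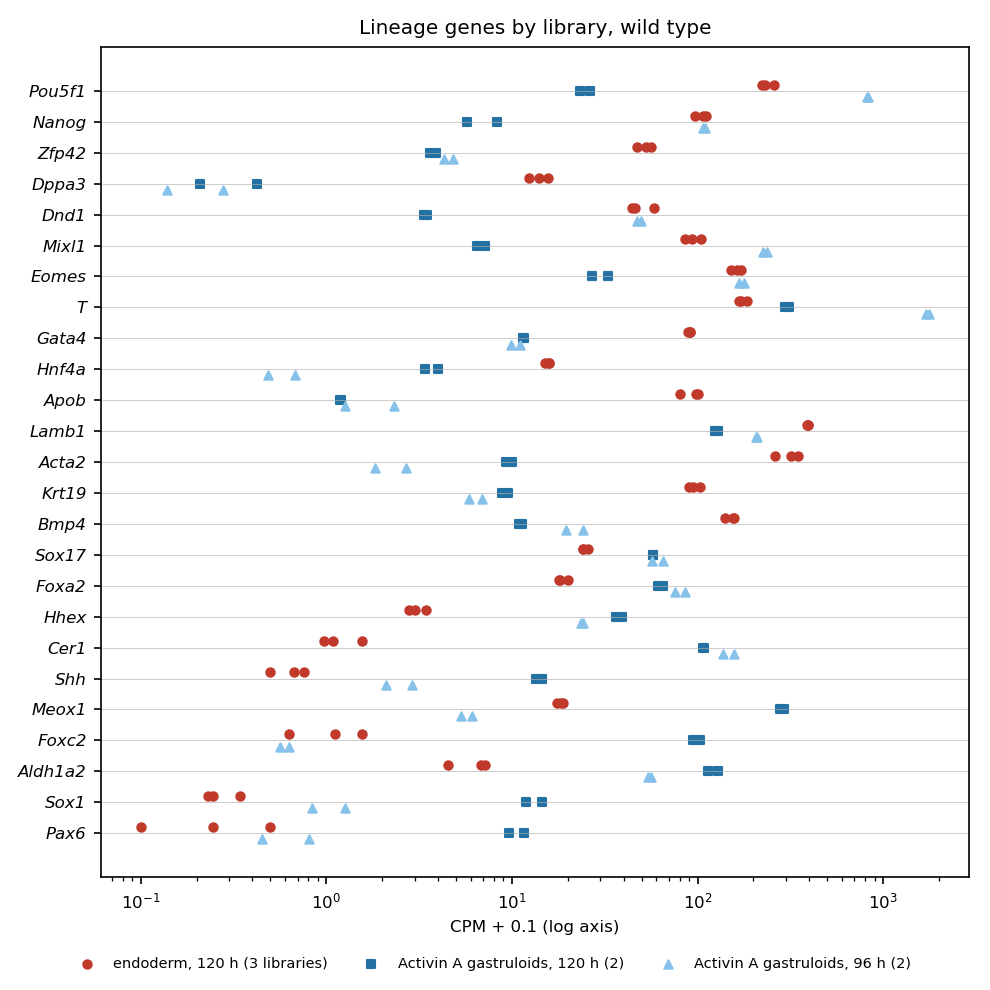
CPM plus 0.1, on a log axis, of 25 lineage genes in each wild-type library: endoderm (3), 120 h gastruloids (2) and 96 h gastruloids (2). Replicates lie close together, and Cer1, Foxc2 and Shh lie under 2 CPM in endoderm while Apob does so in the 120 h gastruloids.

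Factors that divide the gut tube into regions were mostly higher in gastruloids: 13 of 18 tested members, 8 of them large, against 4 higher in endoderm, with a median of -1.23. Osr1, a zinc finger gene of foregut and intermediate mesoderm, was at 0.811, 0.725 and 1.02 CPM in endoderm and at 13.5 and 13.7 CPM in gastruloids (-3.83, SE 0.21). Nkx6-1, expressed in pancreas and ventral neural tube, was at 1.38, 0.659 and 1.31 CPM against 14.5 and 16.9 CPM (-3.67, SE 0.22). Tbx3 was the single large call on the endoderm side, at 74.5, 76.2 and 82.7 CPM against 6.06 and 7.14 CPM (3.72, SE 0.11, adjusted p = 1.00e-14); the gene also acts in pluripotent cells. The hindgut gene Cdx2 differed little (0.29), its paralog Cdx1 was higher in gastruloids (-1.33), and Nkx2-1 and Pdx1, which mark lung or thyroid and pancreas, did not pass the filter on low counts in either culture.

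Secreted and transport genes of visceral endoderm and liver were higher in endoderm for 9 of 15 tested members, 6 of them large, with a median of 1.32, against 4 higher in gastruloids. Apob (ENSMUSG00000020609, chr12:7977648-8016835), the structural protein of lipoproteins, was at 101, 98.3 and 80.5 CPM in endoderm and at 1.08 and 1.10 CPM in gastruloids (6.56, SE 0.18, adjusted p = 3.58e-15). Cubn, an endocytic receptor of visceral endoderm, was at 28.4, 28.1 and 23.1 CPM against 1.08 and 0.989 CPM (4.82, SE 0.21), and its partner gene Amn differed by 2.24. Apoe was at 320, 304 and 320 CPM against 68.5 and 63.0 CPM (2.42, SE 0.06). The classical secreted markers did not follow: Ttr (-1.91), Afp (-1.95) and Ambp (-3.62) were higher in gastruloids, with means under 4 CPM in both cultures. Afp and Ambp were near the floor in endoderm, at means of 0.201 and 0.198 CPM. Alb and Fga, genes of mature liver, had no counts. The summed level of the whole list was 709 to 795 CPM in endoderm and 190 to 201 CPM in gastruloids.

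Basement membrane genes, which parietal endoderm makes in large amounts, were higher in endoderm for 13 of 14 tested members, with 4 large calls and a median of 1.72. Sparc was at 579, 576 and 599 CPM in endoderm and at 130 and 134 CPM in gastruloids (2.30, SE 0.06, adjusted p = 1.36e-15). Lamb1, the laminin β1 chain, was at 395.8, 390.2 and 392.2 CPM against 129 and 125 CPM (1.79, SE 0.05), with Lamc1 (2.10), Lama1 (1.38) and the perlecan gene Hspg2 (2.33) in the same direction. The laminin chain gene Lamb3 did not pass the test (-0.00). Col4a1 (1.66) and Col4a2 (1.86), the collagen IV genes, overlap each other in the annotation.

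Epithelial and mesenchymal genes were both more often higher in the adherent cultures. In the epithelial list 14 of 22 members were higher in endoderm and 4 in gastruloids, mostly by small amounts (median 0.62, 2 large calls on the endoderm side and 1 on the gastruloid side). Cdh1, E-cadherin, was at 276, 280 and 270 CPM against 155 and 161 CPM (0.96, SE 0.05), and Epcam differed by 0.57. The keratin gene Krt19 was at 89.6, 94.6 and 104 CPM against 8.76 and 9.45 CPM (3.55, SE 0.10), far more than Krt8 (0.67) and Krt18 (0.76). The tight junction gene Cldn8 was at least 8.17-fold higher in gastruloids.

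In the mesenchymal list 13 of 21 tested members were higher in endoderm and 6 in gastruloids, with a median of 0.58. Acta2 (chr19:34241090-34255590), smooth muscle actin, was at 262, 319 and 348 CPM in endoderm and at 9.19 and 9.89 CPM in gastruloids (5.18, SE 0.14, adjusted p = 2.23e-15). Vim, vimentin, was at 713, 731 and 852 CPM against 138 and 136 CPM (2.64, SE 0.08). Col1a1, a fibrillar collagen, was at 106, 145 and 164 CPM against 10.7 and 10.5 CPM (3.86, SE 0.18), with Col3a1 (2.22) and Fn1 (2.16) alike. The endoderm replicates spread more in these genes than the gastruloid replicates, and the groups stayed apart. On the gastruloid side stood Prrx2 (-3.27), a homeobox gene of limb and craniofacial mesenchyme, Dcn (-4.61), decorin, and Tcf21, at least 4.95-fold; Pdgfra did not pass the test (0.04).

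Genes of the presomitic mesoderm and the somites were higher in gastruloids for 18 of 21 tested members, 17 of them large, with a median of -3.52. Meox1 (ENSMUSG00000001493, chr11:101877510-101894374), a homeobox gene of somites, was at 17.4, 18.3 and 18.7 CPM in endoderm and at 278 and 290 CPM in gastruloids (-3.81, SE 0.06, adjusted p = 2.10e-17). Foxc2, a forkhead gene of paraxial mesoderm, was at 1.46, 0.528 and 1.02 CPM against 103 and 94.9 CPM (-6.50, adjusted p = 5.69e-16). Aldh1a2, the main retinoic acid synthesis enzyme of somites, was at 6.73, 4.42 and 7.08 CPM against 129 and 114 CPM (-4.18, SE 0.12). Genes of the segmentation clock and of somite boundaries had the same direction, among them Hes7 (-4.73), Lfng (-3.52), Mesp2 (-3.51) and Dll1 (-2.50); Ripply2 was at least 27.7-fold higher in gastruloids, and Tbx18 (-6.23) and Uncx (-6.06), which mark the front and rear part of each somite, were near or below the floor in endoderm. The entry genes of the lineage did not follow. Msgn1, a regulator of presomitic mesoderm, was higher in endoderm at 19.2, 18.2 and 21.6 CPM against 5.52 and 4.17 CPM (2.17, SE 0.16), and Tbx6 was at 18.3, 13.3 and 15.5 CPM against 18.5 and 17.1 CPM, a difference within the spread (-0.03, adjusted p = 0.821).

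Other mesodermal lists were split. Of 16 tested cardiac genes 7 were higher in endoderm and 5 in gastruloids, with a median of 0.07 that turned to -0.09 under scaling by total counts. Actc1, cardiac actin, was at 55.6, 68.7 and 74.0 CPM against 11.03 and 7.91 CPM (2.96, SE 0.15), and Tnnt2 (3.40), Hand1 (3.37) and Tbx5 (at least 5.38-fold) were higher in endoderm as well. Myh7 (-3.42), Isl1 (-2.19) and Nkx2-5 (-1.31) were higher in gastruloids. Among 16 tested endothelial and blood genes 5 were higher in endoderm and 6 in gastruloids, with a median of 0.09 that turned to -0.07 under scaling by total counts. The vascular adhesion gene Pecam1, also found on stem cells, was at 10.1, 9.63 and 8.46 CPM against 1.19 and 1.10 CPM (3.18, SE 0.24). Kdr, the VEGF receptor of vascular progenitors, was at 7.14, 6.33 and 7.22 CPM against 24.1 and 31.4 CPM (-1.85, SE 0.13), and the blood factors Tal1 (-2.63) and Runx1 (1.92) went opposite ways.

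Neural genes were higher in gastruloids for 15 of 20 tested members, 11 of them large, with a median of -2.61, or -2.41 with genes absent from endoderm held at their bound. Sox1, the earliest marker of the neural plate, was at 0.243, 0.132 and 0.146 CPM in endoderm, at or below the floor, and at 11.8 and 14.4 CPM in gastruloids, at least 59.5-fold. Olig2, a gene of the ventral neural tube, had 0 counts in endoderm and 10.4 and 9.78 CPM in gastruloids, at least 45.8-fold. Pax6 was at 0, 0.396 and 0.146 CPM against 11.6 and 9.56 CPM (-5.54, SE 0.37). Hes5, a Notch target, and the proneural gene Neurog2 were at least 27.7-fold and 6.44-fold higher in gastruloids. The 3 members higher in endoderm, Zic1 (1.49), Lhx2 (1.08) and Stmn2 (0.99), are not confined to neural tissue, and the neuronal tubulin gene Tubb3 did not pass the test (-0.37, adjusted p = 0.0675).

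Notochord genes were higher in gastruloids for 7 of 9 tested members, 5 of them large, with a median of -2.36. Shh (chr5:28456815-28467256), the Hedgehog ligand of notochord, floor plate and gut, was at 0.568, 0.396 and 0.657 CPM in endoderm and at 14.5 and 13.4 CPM in gastruloids (-4.52, SE 0.23, adjusted p = 1.04e-11). Ntn1, netrin, was at 14.3, 13.3 and 12.7 CPM against 193 and 186 CPM (-3.66, SE 0.07, adjusted p = 8.26e-17). The BMP antagonist gene Chrd was at 7.54, 6.46 and 7.29 CPM against 61.9 and 59.8 CPM (-2.95, SE 0.10). Nog, another BMP antagonist, was the member higher in endoderm (0.89). Of 10 tested genes of neural crest and surface ectoderm, 6 were higher in gastruloids, with Dlx5 (-2.59) and Krt15 (-2.29) as large calls, and 2 in endoderm, with Tfap2a at least 6.08-fold. Of 7 tested trophoblast genes 4 were higher in endoderm and 2 in gastruloids. The homeobox gene Rhox5 was at 20.8, 20.9 and 17.8 CPM against 1.19 and 0.769 CPM (4.48, SE 0.22). Gata3, at a mean of 7.06 CPM against 11.4 CPM, and Ascl2, at 0.690 CPM against 1.63 CPM, went the other way. The trophoblast genes Elf5, Tpbpa and Prl3d1 were near 0 in both cultures.

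The Hox genes, homeobox genes lying in 4 clusters and numbered by paralog group from the early and anterior group 1 to the late and posterior group 13, differed by position. Of 38 tested genes 15 were higher in endoderm and 21 in gastruloids. All 12 genes of groups 1 to 4 were higher in gastruloids, with log2 fold changes of -2.87 to -0.53. All 11 tested genes of groups 10 to 13 were higher in endoderm, with fitted log2 fold changes of 2.49 to 8.74. The upper end is not a measured size: Hoxd12, at 8.74, had 0 counts in both gastruloid libraries. Hoxa13, Hoxc12, Hoxc13 and Hoxd13 had means of only 0.219, 0.219, 0.274 and 0.489 CPM there. These genes and Hoxd12 passed the filter on low counts only through their endoderm libraries, which fixed their direction. The count of 11 is therefore set in part by the filter. Hoxb13, at a mean of 0.538 CPM in endoderm and 0 CPM in gastruloids, was not tested. Of the 15 genes of groups 5 to 9 4 were higher in endoderm and 9 in gastruloids (median -0.36). These ranges of groups were chosen after the values were seen. The summed level of groups 1 to 4 was 224 ± 12.6 CPM (SD, n = 3) in endoderm and 724 ± 1.42 CPM (SD, n = 2) in gastruloids, and that of groups 10 to 13 was 310 ± 12.8 CPM and 31.1 ± 1.43 CPM.

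**Figure D3:**
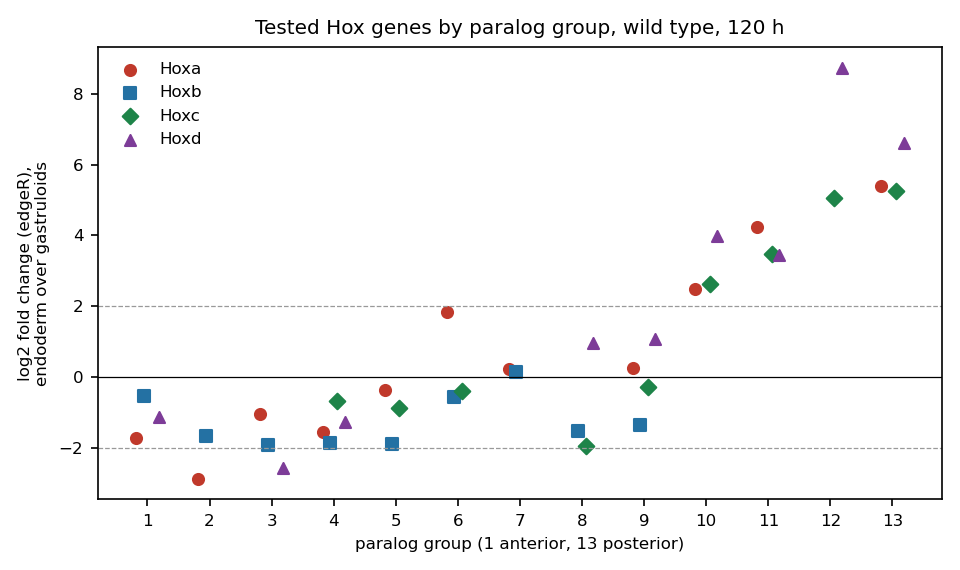
Log2 fold change (endoderm over 120 h gastruloid, wild type) of each tested Hox gene against its paralog group, with 1 marker shape per cluster. Genes of groups 1 to 4 lie below 0, genes of groups 10 to 13 lie between 2.49 and 8.74, and the middle groups lie on both sides of 0. The highest point, Hoxd12, had 0 counts in both gastruloid libraries, so its height is not a measured size.

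Hoxd13 (ENSMUSG00000001819, chr2:74668310-74671599), the last gene of its cluster, was at 46.5, 45.1 and 41.5 CPM in endoderm and at 0.649 and 0.330 CPM in gastruloids (6.62, SE 0.20, adjusted p = 1.17e-14). Hoxa13 was at 7.95, 8.77 and 9.41 CPM against 0.108 and 0.330 CPM, at least 26.6-fold. Hoxd12 was at 4.22, 5.08 and 3.65 CPM against 0 counts in both gastruloid libraries, at least 13.2-fold. The same direction held for Hoxa11, at 31.5, 37.2 and 36.5 CPM against 2.16 and 1.98 CPM (4.23, SE 0.17), and for Hoxa10, at 51.6, 57.8 and 50.4 CPM against 9.73 and 11.4 CPM (2.49, SE 0.11). At the other end, Hoxd3 was at 20.2, 21.6 and 22.2 CPM against 145 and 139 CPM (-2.58, SE 0.07). Hoxb1 differed less, at 48.8, 45.4 and 53.5 CPM against 81.0 and 77.7 CPM (-0.53, SE 0.08). Hox genes overlap each other and antisense transcripts in the annotation, and how the counts treated strand is not given in the sources used here.

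Of the Nodal pathway, into which Activin A signals, 9 of 19 tested genes were higher in endoderm and 6 in gastruloids, with a median of 0.53. The ligand gene Nodal was at 63.8, 66.3 and 73.7 CPM in endoderm and at 41.9 CPM in each gastruloid library (0.86, SE 0.08). Its feedback inhibitors were split: Lefty2 was higher in endoderm (0.97) and Lefty1 in gastruloids (-0.68). Cer1 (ENSMUSG00000038192, chr4:82881751-82885148), a secreted inhibitor of Nodal, BMP and Wnt made by anterior endoderm, was at 1.46, 0.989 and 0.875 CPM against 108 and 107 CPM (-6.45, SE 0.12, adjusted p = 8.26e-17). The inhibitory Smad gene Smad7 was at 57.8, 71.3 and 72.7 CPM against 16.3 and 18.2 CPM (2.12, SE 0.11), and the ligand gene Gdf3 differed by 2.76. Among the receptors, Acvr1b (0.57) was higher in endoderm and Acvr2a (-0.36) and Acvr2b (-0.75) in gastruloids; the signal transducers Smad2 and Smad4 did not pass the test.

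All 16 tested genes of the Wnt list passed the test, 10 higher in endoderm and 6 in gastruloids, with a median of 0.79. The feedback target Axin2 was at 140, 135 and 153 CPM in endoderm and at 50.1 and 50.6 CPM in gastruloids (1.66, SE 0.07), and Notum, a secreted enzyme that inactivates Wnt ligands, was at 41.8, 35.4 and 42.6 CPM against 4.002 and 4.83 CPM (3.33, SE 0.15). Apcdd1 (1.93) and Nkd1 (1.10), also feedback inhibitors, had the same direction. Sfrp1, a secreted antagonist, was at 26.6, 29.0 and 25.6 CPM against 160 and 162 CPM (-2.41, SE 0.07), and Ccnd1 was higher in gastruloids too (-1.09). The call of Lef1 (0.18, adjusted p = 0.0243) was lost under several alternative settings.

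In the BMP list 8 of 17 genes were higher in each culture. Bmp4 (ENSMUSG00000021835, chr14:46383520-46390669), the ligand gene, was at 156, 141 and 157 CPM in endoderm and at 11.2 and 10.9 CPM in gastruloids (3.93, SE 0.09, adjusted p = 5.76e-16). The target genes Msx2, at 41.5, 50.4 and 57.4 CPM against 0.973 and 2.42 CPM (5.03, SE 0.23), and Msx1, at 86.0, 88.3 and 110 CPM against 10.9 and 8.35 CPM (3.45, SE 0.14), had the same direction. The Id genes, also BMP targets, did not: Id2 was at 26.04, 29.1 and 26.8 CPM against 132 and 139 CPM (-2.15, SE 0.07), and Id4 (-1.53), Id3 (-0.44) and Id1 (-0.26) were higher in gastruloids. The antagonist gene Grem1 was at 0.162, 0.396 and 0.219 CPM against 7.36 and 6.48 CPM (-4.49, SE 0.32), in the direction of Chrd.

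Hedgehog genes were higher in gastruloids for 12 of 15 tested members, 4 of them large, with a median of -1.42. Gli1 (ENSMUSG00000025407, chr10:127329882-127341974), the transcription factor whose own gene is a direct target of the pathway, was at 28.6, 25.5 and 24.9 CPM in endoderm and at 254 and 255 CPM in gastruloids (-3.12, SE 0.06, adjusted p = 1.47e-16). Ptch1, the receptor and feedback target, was at 100, 91.5 and 92.2 CPM against 427 and 411 CPM (-1.99, SE 0.05, adjusted p = 4.24e-15), just under the 4-fold limit. Gli1 overlaps Arhgap9 in the annotation. The decoy receptor gene Hhip (-2.02) and the co-receptor gene Boc (-2.17) passed that limit, while Gas1 (-1.72) and Smo (-0.73) were below it. Shh, described above, had the same direction; Ihh, the ligand gene of gut endoderm, was higher in endoderm at 9.33, 6.99 and 7.22 CPM against 4.33 and 3.63 CPM (1.12, SE 0.20).

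Retinoic acid genes were higher in gastruloids for 11 of 13 tested members, 6 of them large, with a median of -1.70. The receptor gene Rarb, itself a target of the pathway, was at 0.649, 0.396 and 0.0729 CPM in endoderm and at 29.6 and 29.9 CPM in gastruloids (-6.16, SE 0.24, adjusted p = 2.87e-13). The authors' FPKM table lists Rarb at 0 in both groups, so that this gene rests on the counts alone. The binding protein gene Crabp1, at 27.8, 32.1 and 36.0 CPM against 210 and 215 CPM (-2.58, SE 0.08), and the uptake receptor gene Stra6 (-2.12) had the same direction. Rarg was the member higher in endoderm (0.88).

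Lists on cell state were examined in the same way. Of 20 cell cycle genes 14 were higher in gastruloids and 6 in endoderm, all but 1 by less than 4-fold (median -0.37): the Cdk inhibitor gene Cdkn1c was at 19.3, 18.4 and 23.5 CPM in endoderm and at 101 and 99.2 CPM in gastruloids (-2.14, SE 0.09), while Cdkn1a was higher in endoderm at 294, 285 and 332 CPM against 89.0 and 91.5 CPM (1.91, SE 0.07). Glycolysis genes were split, 8 of 16 tested higher in endoderm and 5 in gastruloids, and the glucose transporter genes went opposite ways, Slc2a1 at 194, 216 and 235 CPM against 909 and 937 CPM (-1.94) and Slc2a3 at 1361, 1345 and 1260 CPM against 650 and 661 CPM (1.17). Of 15 tested stress genes 14 were higher in endoderm and none in gastruloids, with a median of 1.48; Fos was at 13.7, 13.6 and 16.6 CPM against 0.865 and 1.98 CPM (3.52, SE 0.24), and Gadd45b differed by 2.87. The summed stress list was at 869 to 958 CPM in endoderm and 424 to 432 CPM in gastruloids, and its part in the other differences was not tested. Of 9 tested mitochondrially encoded genes 7 were higher in endoderm (median 0.82). The other two, mt-Co2 (-2.20) and mt-Co3 (-1.72), were at 0.455 and 0.750 CPM in endoderm where mt-Co1 was at 5498 CPM, so that the counting of these genes, and the list with it, is uncertain.

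The genes with the smallest p-values of all among the large calls were named in each direction. On the endoderm side, Tagln (chr9:45929619-45936058), an actin-binding protein of smooth muscle, was at 607, 674 and 705 CPM in endoderm and at 7.03 and 11.2 CPM in gastruloids (6.34, adjusted p = 8.26e-17). Gbp2 (chr3:142620602-142638008), an interferon-inducible GTPase, was at 111, 114 and 126 CPM against 2.60 and 2.97 CPM (5.55), and the transcription factors Stat3, at 166, 157 and 173 CPM against 12.8 and 13.8 CPM (3.79), and Irf1, at 173, 163 and 178 CPM against 19.3 and 20.2 CPM (3.27), were in the same set. Also in this set were Ahnak (4.21), Bmp4, Pmp22 (3.78), the amino acid transporter gene Slc38a4 (3.23) and the galectin gene Lgals1 (3.06). On the gastruloid side the imprinted gene Nnat was at 39.3, 36.6 and 43.1 CPM against 782 and 847 CPM (-4.20, adjusted p = 2.10e-17), and Igfbp5, an IGF-binding protein gene, was at 28.1, 35.3 and 38.4 CPM against 797 and 769 CPM (-4.36). The others were Ptn (-4.00), Metrn (-3.63), Shisa2 (-3.42), Hoxb3os (-3.41), Meox1, Ntn1, Cer1 and Gli1; Hoxb3os is an antisense transcript and its value is uncertain.

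Gastruloids collected 24 h earlier showed on which side of the gastruloid time course the endoderm levels lay. The comparison of endoderm with 96 h gastruloids shares the endoderm libraries with the one above, and values are set side by side only: 12894 of 16789 genes tested were called (76.8%), and 2338 (13.9%) were large calls, 5.86% of the genes tested on the endoderm and 8.06% on the gastruloid side. Over all genes tested in the 120 h comparison, the endoderm libraries lay above all 4 gastruloid libraries in 24% and below all 4 in 31.1%. They lay between the times, above 120 h and below 96 h, in 6.34% and in the opposite order in 9.06%. Pou5f1 was such a gene, at 825 CPM at 96 h, 237 CPM in 120 h endoderm and 24.6 CPM at 120 h, and so was Mixl1, at 230.5, 94.3 and 6.70 CPM. Of 21 pluripotency genes 5 had this order and 10 were above both times in endoderm, and the list median was 0.42 against 96 h gastruloids where it was 2.99 against 120 h. Of 12 mesendoderm genes 4 lay between the times and 5 below both, among them T, at 1731 CPM at 96 h. Nanog was at 108 CPM at 96 h, within the range of the endoderm libraries.

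Several lists had a large share of genes on 1 side of both times, again read from CPM without TMM scaling. Basement membrane genes were above both gastruloid times in 13 of 14, germ cell genes in 7 of 10, secreted visceral endoderm genes in 8 of 15, stress genes in 11 of 15 and mesenchymal genes in 11 of 21. Neural genes were below both in 10 of 20, cell cycle genes in 13 of 20, notochord genes in 6 of 9 and retinoic acid genes in 7 of 13. Of 38 Hox genes 14 were above both times and 14 lay below the 120 h and above the 96 h level, an order also found for 6 of 15 Hedgehog and 5 of 10 neural crest and surface ectoderm genes. Of 14 caudal genes 6 lay above the 120 h and below the 96 h level. Groups 10 to 13 summed to 1.43 CPM at 96 h, 31.1 CPM at 120 h and 310 CPM in endoderm, and groups 1 to 4 to 598, 724 and 224 CPM. Hedgehog genes had a median of 0.22 against 96 h gastruloids, in contrast to -1.42 against 120 h.

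The same culture contrast was measured in the cells labelled Hox-/-, in 5 libraries that the wild-type comparison does not use. These libraries come from the same 2 count tables, so culture and table cannot be told apart in Hox-/- either, also where both lines had the same direction. The contrast was taken from a fit that also held the wild-type libraries. The summed level of the 39 Hox genes was 25.8 CPM in the Hox-/- endoderm cultures and 66.7 CPM in the Hox-/- gastruloids, where the wild-type libraries held 828 to 877 and 1168 to 1191 CPM. Hoxa13 did not follow: it was at 8.57 ± 1.79 CPM (SD, n = 3) in the endoderm and at 21.1 ± 0.879 CPM (SD, n = 2) in the gastruloids labelled Hox-/-, while the wild-type means were 8.71 and 0.219 CPM. Hoxa13 transcripts were thus counted in cells labelled Hox-/-. The title speaks of lost function, and whether these transcripts are intact was not tested. The summed level of Xist and the Y-linked genes was 0.340 and 0.661 CPM in the Hox-/- cultures and 120 and 137 CPM in the wild-type cultures, so that genotype and this difference between the lines cannot be told apart. Of 16354 genes tested 11854 (72.5%) were called, 6110 (37.4%) higher in endoderm and 5744 (35.1%) in gastruloids, and 2376 (14.5%) were large calls, 9.44% of the genes tested on the endoderm and 5.09% on the gastruloid side. Of the 977 large wild-type calls on the endoderm side, 875 (89.6%) were called in the same direction in Hox-/-, where 37.5% of all genes tested here were called that way, and 8 in the opposite direction. Of the 1027 on the gastruloid side, 759 (73.9%, background 35.3%) had the same direction and 22 the opposite one.

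Several lists kept their direction in both lines. In Hox-/- the pluripotency list had 15 members higher in endoderm and 3 in gastruloids (median 3.47), the germ cell list 10 and 0 (4.57), the basement membrane list 12 and 2 (1.37), the secreted visceral endoderm list 9 and 0 (2.42) and the presomitic and somitic list 0 and 20 (-4.88). The endoderm factor list, with no settled direction in wild type, had 11 and 4 (2.13) in Hox-/-. The signed log2 fold change was higher there for 7 of its members and lower for 4. Pou5f1 was at 92.2 CPM in the Hox-/- endoderm cultures and at 5.59 CPM in the Hox-/- gastruloids (4.10). Whether the contrast differed between the lines was tested as a difference of the 2 culture contrasts, in which an additive offset between the tables drops out. Of the genes tested 5498 (33.6%) differed, 2676 (16.4%) with a higher signed endoderm-over-gastruloid log2 fold change in Hox-/- and 2822 (17.3%) with a lower one. At least a 4-fold difference between the contrasts was reached by 3.34% on the first side and by 1.23% on the second, and scaling by total counts gave 3692 of 5517 (66.9%) on the first side.

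**Figure D4:**
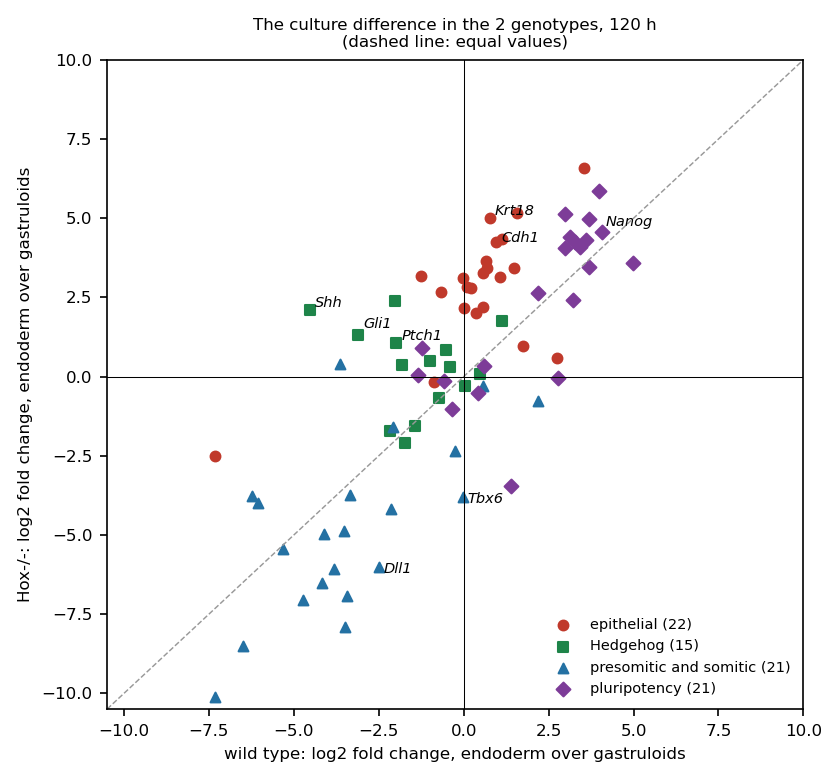
Log2 fold change (endoderm over 120 h gastruloid) in wild type on the horizontal axis and in Hox-/- on the vertical axis for the epithelial, Hedgehog, presomitic and pluripotency genes, with the dashed line of equal values. Krt18 and Cdh1 lie far above the line, at 0.76 and 0.96 in wild type against 5.00 and 4.24 in Hox-/-, Gli1 and Ptch1 change sign, and Tbx6 and Dll1 lie below it.

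The epithelial and Hedgehog lists differed between the lines in most of their members, and so did other lists. Of 9 tested notochord genes, 6 had a higher signed log2 fold change in Hox-/- and 1 a lower one. The notochord median was 0.41 in Hox-/- against -2.36 in wild type. Of 21 tested mesenchymal genes, 8 were higher in this sense and 8 lower. In the epithelial list 19 of 22 genes had a higher signed log2 fold change in Hox-/- and 2 a lower one, against a background of 16.4% and 17.3%. The median was 3.12 in Hox-/- against 0.62 in wild type. Krt18 was at 148 CPM in the Hox-/- endoderm cultures and at 4.79 CPM in the Hox-/- gastruloids (5.00), and the difference to wild type was 4.22 (adjusted p = 2.50e-16). Cdh1 was at 177 and 9.79 CPM (4.24), a difference of 3.26 (adjusted p = 7.38e-16). The list as a whole summed to 1072 CPM in Hox-/- endoderm and to 143 CPM in Hox-/- gastruloids, compared with 1627 to 1660 and 1141 to 1162 CPM in wild type, so that the levels of the 2 lines were farther apart in gastruloids than in endoderm.

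For the Hedgehog list, 9 of 15 genes were higher in Hox-/- endoderm and 5 in Hox-/- gastruloids (median 0.36). The signed log2 fold change was higher than in wild type for 9 genes and lower for 3. Gli1 was at 38.6 CPM in endoderm and 16.03 CPM in gastruloids (1.33), the reverse of wild type, with a difference of 4.42 (adjusted p = 2.04e-16). Ptch1, at 116 and 58.7 CPM (1.04), and Shh, at 1.51 and 0.363 CPM (2.10), also changed direction. Igfbp5 had the smallest p-value of this test, at 219 and 82.7 CPM in Hox-/- (1.47), a difference of 5.81 (adjusted p = 2.27e-18).

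On the other side, 12 of 21 presomitic and somitic genes had a lower signed log2 fold change in Hox-/- and 4 a higher one. The list median was -4.88 in Hox-/- and -3.52 in wild type, so the list lay farther toward the gastruloid side in Hox-/-. Tbx6, which did not differ in wild type, was at 7.17 CPM in the Hox-/- endoderm cultures and at 104 CPM in the Hox-/- gastruloids, a difference of -3.78 (adjusted p = 2.94e-13), and for Dll1 the difference was -3.52 (adjusted p = 1.81e-13). The summed list was at 173 CPM in the Hox-/- endoderm cultures and at 2458 CPM in the Hox-/- gastruloids, compared with 208 to 243 and 1042 to 1063 CPM in wild type. Nkd2, a Wnt feedback gene, was at 24.1 and 23.3 CPM in wild type and at 19.5 and 199.8 CPM in Hox-/-, a difference of -3.52, and Greb1l was at 131 and 276 CPM against 29.2 and 417 CPM, a difference of -2.88. Hoxd13 (-9.57) and Hoxa13 (-6.67) also had negative values, whose size is uncertain because both genes were near the floor in wild-type gastruloids. Hoxd13 was at 0.457 CPM in endoderm and 3.73 CPM in gastruloids labelled Hox-/-, where the wild-type means were 44.4 and 0.489 CPM.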

How the data were processed

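Per the labels' protocols, poly(A) RNA was sequenced from stranded libraries. The deposited counts are whole numbers per Ensembl gene and library and are not normalized, and the deposited FPKM values, scaled by the authors for transcript length and library size, served here only as an alternative unit; an FPKM of 0 can be a failed estimate, as 278 genes are listed at 0 with at least 100 counts. Cutadapt 1.16, STAR 2.7.7a and Cufflinks 2.2.1 with the mm10 build are named in the submitters' processing notes; the counting tool and its strand setting are not given in the sources used here. The endoderm and gastruloid count tables were joined on 55055 shared identifiers; 86 found only in the gastruloid table held 0.0660% and 0.0645% of counts at 120 h.

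Counts were tested in R 4.3.3 with edgeR 4.0.16 (quasi-likelihood test, filterByExpr, TMM, Benjamini-Hochberg adjustment over all genes tested, threshold 0.05) for 4 contrasts: wild type in 5 libraries, Hox-/- and its difference from wild type in 10, and 96 h gastruloids in 7. CPM was computed from the deposited counts without TMM scaling. A group at or under 3 counts in every library was treated as absent and its fold given as a bound. In the wild-type comparison such a gene passed the filter only through the other culture, so its direction was fixed. With 3 libraries against 2, an exact two-sided permutation test of a single value cannot go below p = 0.2, so none was used. On simulated counts the wild-type test recovered 96% of 2-fold and 99% of 4-fold changes, with 4.41% of its calls false. The simulation changed 200 genes, with 15174 tested, all of them well above the floor, and gave every gene the same spread. In the data 76.3% of genes were called and spread and level vary by gene, so these rates need not hold there. Overlaps come from GENCODE vM21 (mm10). Positions are those deposited with the FPKM values, or those of GENCODE where none was deposited. For 93.2% of the shared identifiers the position equalled that of GENCODE.

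The 28 gene lists (480 genes, 479 found) and the groups were chosen with earlier results of these data known; a gene may stand in more than 1 list, and members are described by counts and medians. Genes were named by rule: every defining member of a list, all endoderm factors, up to 3 large calls per list and direction, the 10 per direction with the smallest p over all genes without overlap between groups, and 5 per direction for the difference between genotypes. Members named beside these illustrate a list. Replicates were compared before use: those of 1 group correlated at 0.993 or more and differed by more than counting noise (chi-square per degree of freedom 3.95 in endoderm and 1.37 in gastruloids). Alternatives were RLE and total-count scaling, other filters, DESeq2 1.42.0, a test against a 2-fold change, limma 3.58.1 on log2 FPKM with pseudocounts of 1 and 0.1, the union of identifiers, all 14 endoderm and Activin A libraries in 1 fit, thinning to equal depth, GC and length offsets, the replicate number as a block, and leaving out each library. Some genes are not reported here.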

Additional observations from a re-analysis of the deposited data

Results flagged for a closer look

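The culture contrast, endoderm over 120 h gastruloid on the log2 scale, differed between the Hox-/- and the wild-type cells in 5498 genes by a test of the difference itself (edgeR's quasi-likelihood test, adjusted p under 0.05). The values below are the Hox-/- contrast minus the wild-type contrast, for the defining genes of the lists and for the genes with the smallest p-values. Among epithelial and endodermal genes the difference was 4.22 for Krt18, 3.26 for Cdh1, 3.20 for Foxa1, 2.75 for Foxa2 and 6.52 for Ttr. Among Hedgehog and ventral midline genes it was 6.61 for Shh, 4.42 for Gli1, 3.01 for Ptch1 and 5.24 for Nkx6-1.

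Positive differences were also found for Igfbp5 (5.81), Dlx5 (4.36), Nkx2-5 (3.38), Id2 (3.16), Gata3 (2.51), Id1 (1.36), T (1.21) and Cyp26a1 (0.93). Genes of the presomitic mesoderm had negative differences, of -3.78 for Tbx6, -3.52 for Dll1 and -2.97 for Msgn1. In the Nodal pathway the difference was -2.14 for Lefty2 and -1.53 for Nodal, and among Wnt genes it was -3.52 for Nkd2, -1.52 for Lef1 and -1.17 for Wnt3a. The remaining negative values were -9.57 for Hoxd13, -6.67 for Hoxa13, -2.88 for Greb1l, -2.21 for Lama1 and -0.50 for Cdh2. Hoxd13 and Hoxa13 were near the floor in wild-type gastruloids, so the size of their values is uncertain. Both also belong to the genes that the label Hox-/- concerns. Groups of 2 and 3 libraries were too small to be checked for single outlying samples.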

How the results depend on the processing

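Of the 11916 wild-type calls, 3466 remained as a count when the test was set against a 2-fold change, and DESeq2 called 10525 genes. Large calls higher in endoderm numbered 377 with at least 10 counts in every library and 318 with log2(FPKM + 1), where the main count was 977; large calls higher in gastruloids numbered 1554 with no filter, 327 with at least 10 counts in every library, 203 with log2(FPKM + 1) and 621 with log2(FPKM + 0.1), where it was 1027. Leaving out each library in turn gave 10405 to 11814 calls, 857 to 1116 large ones in endoderm and 972 to 1015 in gastruloids, 10627 to 12038 for Hox-/-, 4302 to 5636 for the difference between genotypes and 11691 to 13114 against 96 h gastruloids. Scaling by total counts shifted the median of all genes by -0.159 and left 4848 of 11945 calls (40.6%) on the endoderm side, which held 50.2% with TMM; the difference between genotypes was positive in 66.9% of calls, and in 48.7% with TMM. It also turned the medians of the endoderm factor (-0.0108), cardiac (-0.0886) and endothelial and blood (-0.0651) lists.

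Replicate numbers did not pair the samples: deviations of same-numbered libraries correlated at -0.0119 and -0.000258. With the replicate number as a block, 12079 genes were called, with 952 and 1044 large calls, and 11634 for Hox-/-, 5512 for the difference between genotypes and 12754 against 96 h gastruloids.

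Of 169 named genes called, 124 kept call and direction in each alternative run, and 155 when the test against a 2-fold change is set aside; of 3232 pairs of a gene and an alternative, 87 lost the call. Hoxb3os changed sign, to 0.58 with log2(FPKM + 1); the cause was not tested. Genes near 0 that were not called also changed sign: Gata6 (-0.12 with total counts, -0.0378 with the block), Gsc (-0.12 with total counts, -0.0579 with the block), Pdgfra (-0.12 with total counts, -0.11 with GC offsets), Eif2s3y (0.0302 and 0.0314 with FPKM pseudocounts of 1 and 0.1, 0.11 with GC offsets), Sox10 (0.0065 with no filter, 0.0288 with log2(FPKM + 1), 0.22 with GC offsets) and Tbx6 (0.0095 with no filter, 0.11 with GC offsets). With 1 library left out the values spanned 0 for Apoa1 (-0.5391 to 0.1358), Myl7 (-1.2192 to 0.2635), Foxj1 (-0.0998 to 0.5209), Gata6 (-0.0390 to 0.1045), Gsc (-0.1076 to 0.2201), Pdgfra (-0.0194 to 0.0901), Eif2s3y (-0.0878 to 0.0048), Sox10 (-0.3388 to 0.3527) and Tbx6 (-0.1460 to 0.0843). Depth limits the genes near the floor, where a fold is only a bound.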

Other observations

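Genes of 3 further groups were collected after the values had been seen, so their counts describe these libraries and test nothing. Genes of actin, contractility and cell adhesion, many of them targets of serum response factor or of the Hippo pathway, were higher in endoderm for all 25 tested members, 16 of them large, with a median log2 fold change of 2.08; over all genes 38.3% were higher in endoderm. Ankrd1, a Hippo pathway target, was at 17.2, 23.0 and 23.6 CPM in endoderm and had 0 counts in both gastruloid libraries. Myl9, a myosin light chain gene, was at 101, 121 and 115 CPM against 8.76 and 10.2 CPM (3.72), and Thbs1, thrombospondin, was at 52.6, 65.4 and 69.8 CPM against 5.30 and 6.15 CPM. The summed level was 8049 to 8781 CPM in endoderm and 2775 to 2783 CPM in gastruloids, and the same 25 genes were higher in endoderm in Hox-/- cells.

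Interferon-inducible and STAT genes were higher in endoderm for all 21 members, 18 of them large, with a median of 3.44, and all 21 had this direction in Hox-/- cells. Their summed level was 1312 to 1446 CPM in endoderm, and it was 214 CPM in each gastruloid library. Isg15, a ubiquitin-like protein, was at 29.0, 24.3 and 24.1 CPM against 0.757 and 0.879 CPM (5.11), and Bst2, a membrane tether of viruses, was at 139, 129 and 145 CPM against 11.2 and 9.34 CPM (3.90). Ifit1 was at 7.46, 5.61 and 5.76 CPM against 0 counts in both 120 h gastruloid libraries. At 96 h the members differed among themselves. Isg15 was at 48.3 CPM, Bst2 at 130.4 CPM and Ifit1 at 22.8 CPM in 96 h gastruloids, near or above their endoderm levels. Stat3 was at 26.3 CPM where endoderm held 165 CPM, Gbp3 at 7.14 CPM against 22.6 CPM, and Socs3 at 3.47 CPM, below its 120 h level of 10.1 CPM.

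For description, the 250 bases upstream of the starts of these genes were searched on both strands for a pair of TTTC repeats separated by any 2 bases. This is the core of the interferon-stimulated response element (RefSeq, GRCm38.p6). Of 20 promoters matched to the list 8 held it: those of Stat2, Gbp2, Gbp3, Ifit1, Ifit3, Isg15, Bst2 and B2m. Of 32841 promoters in all 978 (2.98%) held it. The genes were chosen as interferon-inducible, so their share describes the choice and tests nothing about the cultures. The promoters of Gbp2 (chr3:142620413-142620662, plus strand) and Isg15 (chr4:156200819-156201068, minus strand) show the motif on either strand, in capitals; a match describes letters and is not a measured site.
Gbp2: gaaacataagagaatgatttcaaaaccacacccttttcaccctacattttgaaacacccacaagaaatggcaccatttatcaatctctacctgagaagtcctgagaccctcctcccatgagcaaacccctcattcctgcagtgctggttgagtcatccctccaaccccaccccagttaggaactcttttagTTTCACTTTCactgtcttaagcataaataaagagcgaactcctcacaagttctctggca
Isg15: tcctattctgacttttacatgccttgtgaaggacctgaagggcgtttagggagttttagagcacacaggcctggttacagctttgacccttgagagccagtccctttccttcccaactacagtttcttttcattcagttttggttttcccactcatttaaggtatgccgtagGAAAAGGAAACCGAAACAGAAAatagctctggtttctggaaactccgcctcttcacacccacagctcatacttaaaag
A CArG box, the binding motif of serum response factor, was found in the same window in 4 of 19 promoters of the actin and adhesion genes, those of Cnn2, Myl9, Vcl and Srf, and in 482 of 32841 promoters (1.47%). Targets of this factor were among the genes chosen, so this share too tests nothing about the cultures.

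Imprinted genes, which are expressed from 1 parental allele, went in both directions: of 22 tested, 11 were higher in endoderm and 7 in gastruloids, with 2 large calls on each side and a median of 0.13. Peg10 was at 2541, 2640 and 2893 CPM in endoderm and at 668 and 632 CPM in gastruloids (2.21), and Slc38a4 differed by 3.23. Nnat (-4.20) and Cdkn1c (-2.14) were the large calls on the gastruloid side. Grb10 was higher in wild-type gastruloids (-0.91) and in Hox-/- endoderm (2.18).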
